A study of Mus musculus with 3 samples.

Results

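The retinal neurons of Tspan12 knockout mice treated with F4L5.13 were compared with those of wild type (WT) mice in 3 classes of cell barcodes: ON bipolar cells, cones and amacrine cells. The classes were defined by transcripts. A bipolar barcode held at least 5 reads of Trpm1 plus Grm6 and fewer than 5 of Rlbp1. A cone barcode held at least 2 reads in at least 4 of the 5 genes Arr3, Gnat2, Pde6h, Pde6c and Gngt2. An amacrine barcode held at least 2 reads of Tfap2a plus Tfap2b plus Pax6 and at least 5 of Gad1 plus Gad2 plus Slc6a9. Barcodes needed at least 500 detected genes and at most 20% mitochondrial reads. These rules gave 6178 barcodes in the WT and treated libraries (3235 and 2943), of 25237 that passed the filter and 26696 in all 3 libraries. The knockout (KO) library without treatment was classified the same way and its levels stand beside the other libraries' levels.

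The study dissociated mouse retinas at postnatal day 26 (P26) with papain and profiled them with the 10x Chromium 3′ kit, version 3, in 3 groups. One was WT, one lacked Tspan12, and one lacked Tspan12 and received F4L5.13, an antibody. Its doses were given into the peritoneum, 10 mg/kg each at P6, at P9 and again at P12, and afterwards 4 mg/kg at intervals of 3 days. Before capture, anti-CD73 and Annexin V beads were used to remove photoreceptors and dead cells, so the numbers of barcodes do not give the makeup of the retina. The labels name the strain Tspan12tm1.2Hjug for every group, WT included, and do not say how many retinas or mice each library holds. Each group has 1 library, so no difference here was tested between groups, and the spread between animals is unknown.

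TSPAN12 is a membrane protein with which the ligand Norrin signals through the receptors FZD4 and LRP5 in retinal endothelial cells, and without this signal the deep vessels of the retina do not form normally. F4L5.13 is an antibody that binds FZD4 and LRP5 and turns the pathway on without the ligand. Neurons are therefore not the cells in which the missing protein is best known to act, but they depend on the vessels for oxygen. ON bipolar cells receive glutamate from photoreceptors through the receptor mGluR6 (Grm6), which controls the channel TRPM1. Cones carry the short-wavelength opsin Opn1sw and the medium-wavelength opsin Opn1mw, in mice often both in 1 cell, in proportions that change from the dorsal to the ventral retina. Amacrine cells are inhibitory interneurons that release GABA or glycine, and many types also release a neuropeptide.

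There were 2195, 1661 and 2003 bipolar, 1052, 889 and 902 cone, and 71, 810 and 90 amacrine barcodes in WT, KO and treated. Median reads per barcode were 12177, 12535 and 14034 in bipolar, 13487, 14781 and 16348 in cone, and 20108, 21750.5 and 26108.5 in amacrine barcodes. Of the fixed markers, 13 of 14 for bipolar, 12 of 12 for cone and 12 of 12 for amacrine cells were highest in their own class in the WT library. Only the 3 classes were compared for this. The markers include the genes of the class rules, whose place was largely set by those rules, so these counts are no independent check. The treated library gave 13, 11 and 12, and the exceptions were Lrit3, highest in cones in both libraries, and Ccdc136, highest in bipolar barcodes in the treated library. Outside the 3 classes, rods held the cone marker Kcnv2 above cones, at 151 against 105 CPM in WT and 176 against 92.6 CPM in treated. The WT and treated libraries shared 15 barcode sequences, and 3 of these fell in the 3 classes in both libraries. Rod barcodes numbered 267 in the WT, 4544 in the KO and 3897 in the treated library. Tspan12 itself was at 1.90 CPM (a gene's reads scaled to the usual CPM total over all reads of the class) in the WT, 2.69 in the KO and 1.90 in the treated library in bipolar barcodes, and at 6.84, 12.2 and 5.81 CPM in cones. In Müller glia it was at 48.4, 30.8 and 28.9 CPM, and in amacrine barcodes at 43.8, 23.7 and 23.0 CPM. The largest difference was in rods, at 26.9, 2.34 and 1.34 CPM from 136, 43 and 21 reads. The tags come from the 3′ end, and the sources used here do not give which part of the gene the allele lacks, so these reads do not check the labels.

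Many barcodes carried transcripts of another cell as well. In 24.3% of WT, 36.3% of KO and 30.6% of treated cone barcodes, at least 5 reads of the Müller glia gene Rlbp1 were present or a rule of another class was also met. Rlbp1 alone reached 5 reads in 17.0%, 28.6% and 25.5% of cone barcodes, and in 14.2%, 26% and 20.9% after every barcode was thinned to 5000 reads, which left out 3, 30 and 40 shallower barcodes. In amacrine barcodes the mixed share was 23.9%, 13% and 15.6%. In bipolar barcodes, whose rule excludes Rlbp1, it was 3.69%, 6.26% and 2.50%. Values are therefore also given without mixed barcodes and without those with at least 5 reads of horizontal, ganglion, microglia or endothelial cell markers, which are called the cleaned classes below. This left out 115, 138 and 85 bipolar, 259, 326 and 284 cone, and 17, 127 and 17 amacrine barcodes of the WT, KO and treated libraries. The last step was chosen after the data were seen. No barcode was left out for its rod transcripts, so these remain in the cleaned classes.

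In the treated library most genes in all 3 classes were near their WT level. Among genes with at least 30 molecule equivalents (reads divided by the mean number of reads per molecule, estimated for each library) in the higher library, 93.8% of 14007 in bipolar, 89.1% of 12810 in cone and 83.5% of 5250 in amacrine barcodes lay within 1.5-fold of WT. This share is not given for the KO library, whose median log2 ratios to WT over the same genes were also small, at 0.01, 0.08 and 0.07. A gene was called higher or lower where the CPM ratio was at least 2 or at most 0.5 and the bound of its 95% interval nearest 1 was beyond 1.5. Intervals, here and below, cover counting error only. Genes of the mitochondrial, ribosomal, haemoglobin, crystallin and sex-linked families, rod and Müller transcripts, unnamed gene models, and genes at least 3 times higher in rod or Müller barcodes of the higher library were left out of the ranking. In bipolar barcodes 18 genes were then called higher (0.182% of 9880) and 11 lower (0.111%) in the treated library. In cones 97 were called higher (0.947% of 10246) and 14 lower (0.137%), and in amacrine barcodes 35 higher (0.763% of 4588) and 94 lower (2.05%).

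Counted over all barcodes of a class, the untreated KO library stood farther from WT in bipolar cells and cones. There 227 genes were called higher (2.28%) and 53 lower (0.532%) in bipolar barcodes, and 468 higher (4.42%) and 28 lower (0.265%) in cones. In amacrine barcodes the KO numbers were 67 higher (0.922%) and 138 lower (1.9%). Over all genes tested, without the exclusions, KO calls were 2.6% higher and 1.23% lower in bipolar, 4.47% and 0.764% in cone, and 0.86% and 2.31% in amacrine barcodes. Both comparisons use the same WT library. These KO counts include mixed barcodes, and counts for the cleaned classes are not given. In cones 10 of 36 tested hypoxia-list genes were called higher in KO, but 0 of 26 in cleaned cones. In bipolar barcodes the numbers were 13 of 35 and, cleaned, 13 of 34. Against the KO library the treated library had 77 genes higher (0.774%) and 207 lower (2.08%) in bipolar, 65 higher (0.61%) and 182 lower (1.71%) in cone, and 47 higher (0.636%) and 41 lower (0.555%) in amacrine barcodes. The number of cells behind each class differed between libraries, most of all for amacrine cells, and a count of called genes grows with it.

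Few cells decided many of the calls. More than 50% of a gene's reads lay in 5 barcodes of the higher library for 10 of the 18 and 3 of the 11 genes in bipolar, 7 of the 97 and 0 of the 14 in cone, and 29 of the 35 and 89 of the 94 in amacrine barcodes. Without mixed barcodes the treated library had 18 genes higher (0.184%) and 12 lower (0.122%) in bipolar, 28 (0.363%) and 7 (0.0907%) in cone, and 24 (0.75%) and 10 (0.312%) in amacrine barcodes. In the cleaned classes it had 6 genes higher (0.0617%) and 13 lower (0.134%) in bipolar barcodes, of which 6 and 8 had also been called in the whole class. Cleaned cones gave 8 higher (0.104%) and 9 lower (0.117%), of which 4 and 4 were shared with the whole class. Cleaned amacrine barcodes gave 16 higher (0.519%) and 11 lower (0.357%), of which 13 and 5 were shared. Over all genes, without the exclusions, the cleaned classes had 0.177% called higher and 0.25% lower in bipolar, 0.202% and 0.191% in cone, and 0.539% and 0.368% in amacrine barcodes.

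**Figure D1:**
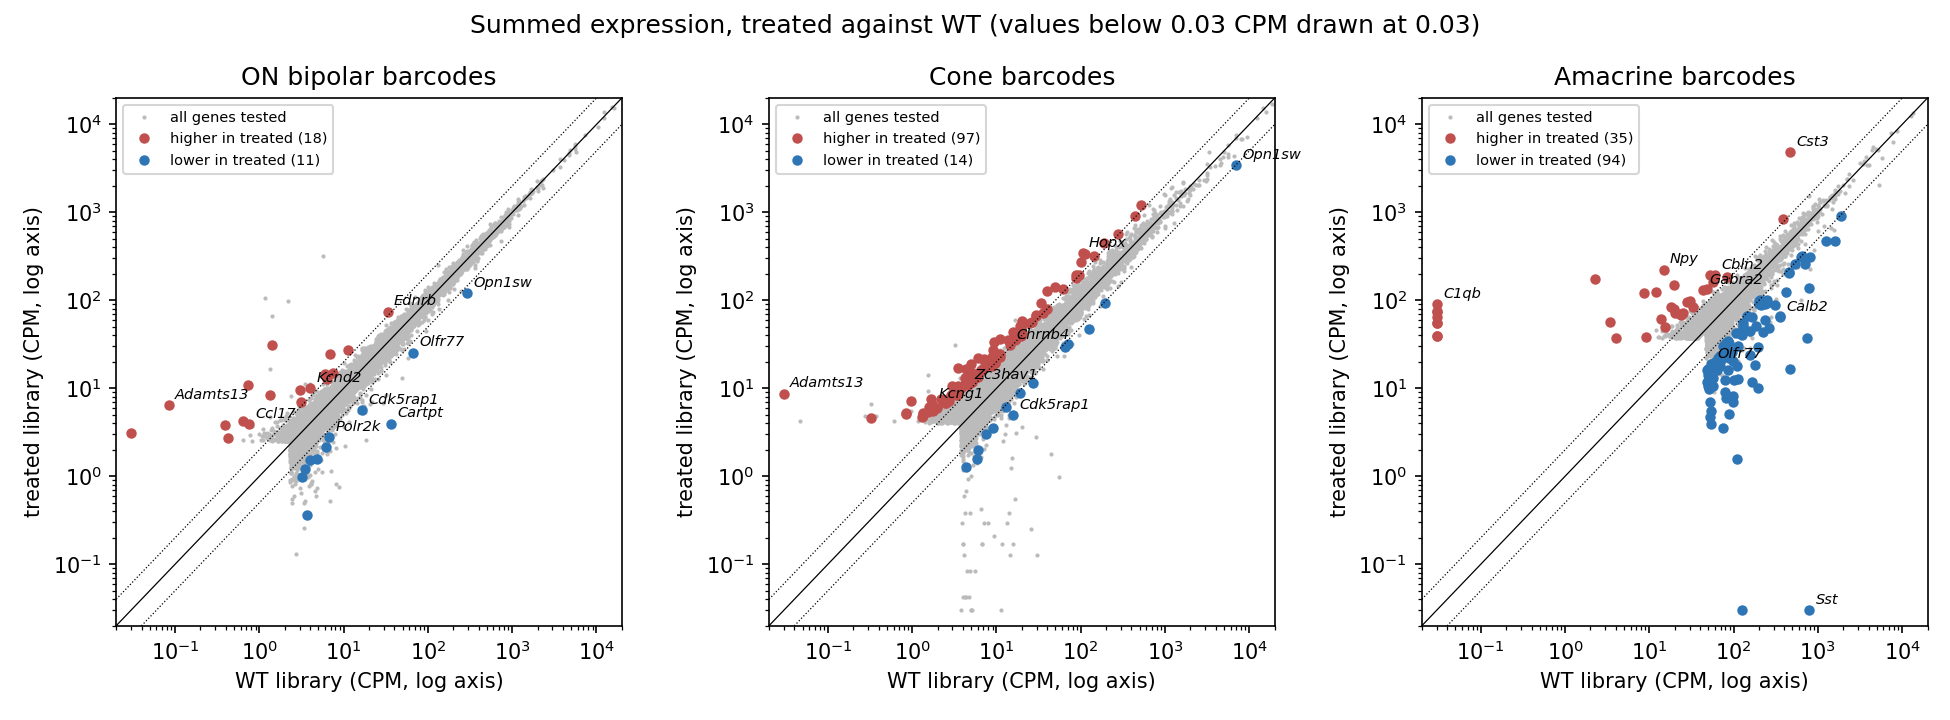
Summed expression of each tested gene in the WT library (horizontal, CPM, log axis) and the treated library (vertical, CPM, log axis) in bipolar, cone and amacrine barcodes; the solid line marks equal levels and the dotted lines a 2-fold difference. Red and blue points are genes called higher (18, 97 and 35) or lower (11, 14 and 94) among those left for ranking, and grey points beyond the dotted lines were not called or were left out of the ranking.

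In ON bipolar cells the genes of the response to low oxygen, many of them higher in the KO library, were near the WT level in the treated library. Cells short of oxygen stabilise the factor HIF-1, which binds promoters at the core letters ACGTG and raises glycolytic enzymes, glucose transporters and regulators of its own decay. The 250 bases before the start of 2 such genes are shown with these letters marked. They have the highest KO to WT ratios in bipolar barcodes among listed genes with 1 promoter entry whose window lies outside the annotated gene. After treatment Hk2 was near WT and Pgk1 below it. Hk2 encodes hexokinase 2, the first enzyme of glycolysis, and Pgk1 encodes phosphoglycerate kinase. Sequences are from RefSeq on GRCm38.p6, 5′ to 3′ on the strand of the gene, and capitals mark every ACGTG on either strand (read as CACGT where it lies on the other strand).
Hk2, chr6:82774455-82774704, minus strand: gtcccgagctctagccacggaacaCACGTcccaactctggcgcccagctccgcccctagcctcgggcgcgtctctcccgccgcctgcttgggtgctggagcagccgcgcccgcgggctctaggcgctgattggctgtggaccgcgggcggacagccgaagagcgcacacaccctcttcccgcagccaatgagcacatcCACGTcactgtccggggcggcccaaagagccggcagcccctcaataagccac
Pgk1, chrX:106186850-106187099, plus strand: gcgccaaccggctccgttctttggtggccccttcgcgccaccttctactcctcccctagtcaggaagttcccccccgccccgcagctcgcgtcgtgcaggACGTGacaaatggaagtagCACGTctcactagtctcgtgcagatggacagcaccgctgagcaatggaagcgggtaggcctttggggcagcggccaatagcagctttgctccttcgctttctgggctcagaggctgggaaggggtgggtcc
Each window holds 2 matches. At least 1 match was present in a promoter entry of 20 of the 32 genes of the hypoxia list with an entry (62.5%), and of 4998 of 27025 genes in all (18.5%). The list was made of genes of the response to low oxygen, so its share reflects that choice and is not a result about these libraries. A match describes the letters and does not show that the factor was bound.

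Of the 38 genes of the hypoxia list, 35 had enough reads in bipolar barcodes. Their median log2 ratio of treated to WT was 0.11, beside 0.01 over all genes tested, and 23 were above and 12 below WT. None was called higher and 1 lower, where all genes gave 0.264% higher and 0.664% lower. For KO to WT the median was 0.89, 33 were above and 2 below, and 13 were called higher, where all genes gave 2.6%. Summed over the list the level was 8169 CPM in the WT, 13186 in the KO and 8175 in the treated library, and in cleaned barcodes the medians were 0.10 for treated and 0.91 for KO.

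Hk2 was at 45.3 CPM in the WT, 179 in the KO and 50.1 in the treated library, so that the treated level was 1.11 (interval 0.986 to 1.24) times WT. Egln1, the prolyl hydroxylase that marks HIF for decay, was at 61.6, 171 and 68.3 CPM in WT, KO and treated, in that order here and below. Higd1a, a mitochondrial protein induced by hypoxia, was at 149.9, 402 and 156 CPM. In all 3 genes only the KO library stood high. Slc16a3, the lactate exporter, was at 88.8, 222 and 106 CPM, and Ldha, which makes lactate, at 704, 1252 and 719 CPM.

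Some members stayed between WT and KO. Pfkfb3, whose product drives glycolysis through phosphofructokinase, was at 15.5, 38.5 and 22.8 CPM, a treated level 1.47 (interval 1.22 to 1.77) times WT. Slc2a3, a glucose transporter of neurons, was at 45.6, 98.5 and 63.7 CPM, with a ratio of 1.40 (interval 1.25 to 1.56). Vegfa, the growth factor that draws vessels, was at 104, 148 and 134 CPM, with a ratio of 1.28 (interval 1.19 to 1.38). These 3 intervals lay above 1 and below the 2-fold line. Others lay below WT: Pgk1 was at 56.7, 105 and 39.3 CPM, a treated level 0.693 (interval 0.616 to 0.779) times WT, and Bnip3, a mitophagy receptor, at 88.8, 191 and 79.9 CPM. The 1 member called lower was Ndufa4l2, at 4.03, 8.77 and 1.36 CPM, but 79.2% of its WT reads came from 5 barcodes, and Müller glia held it at 93.4, 1524 and 148 CPM.

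**Figure D2:**
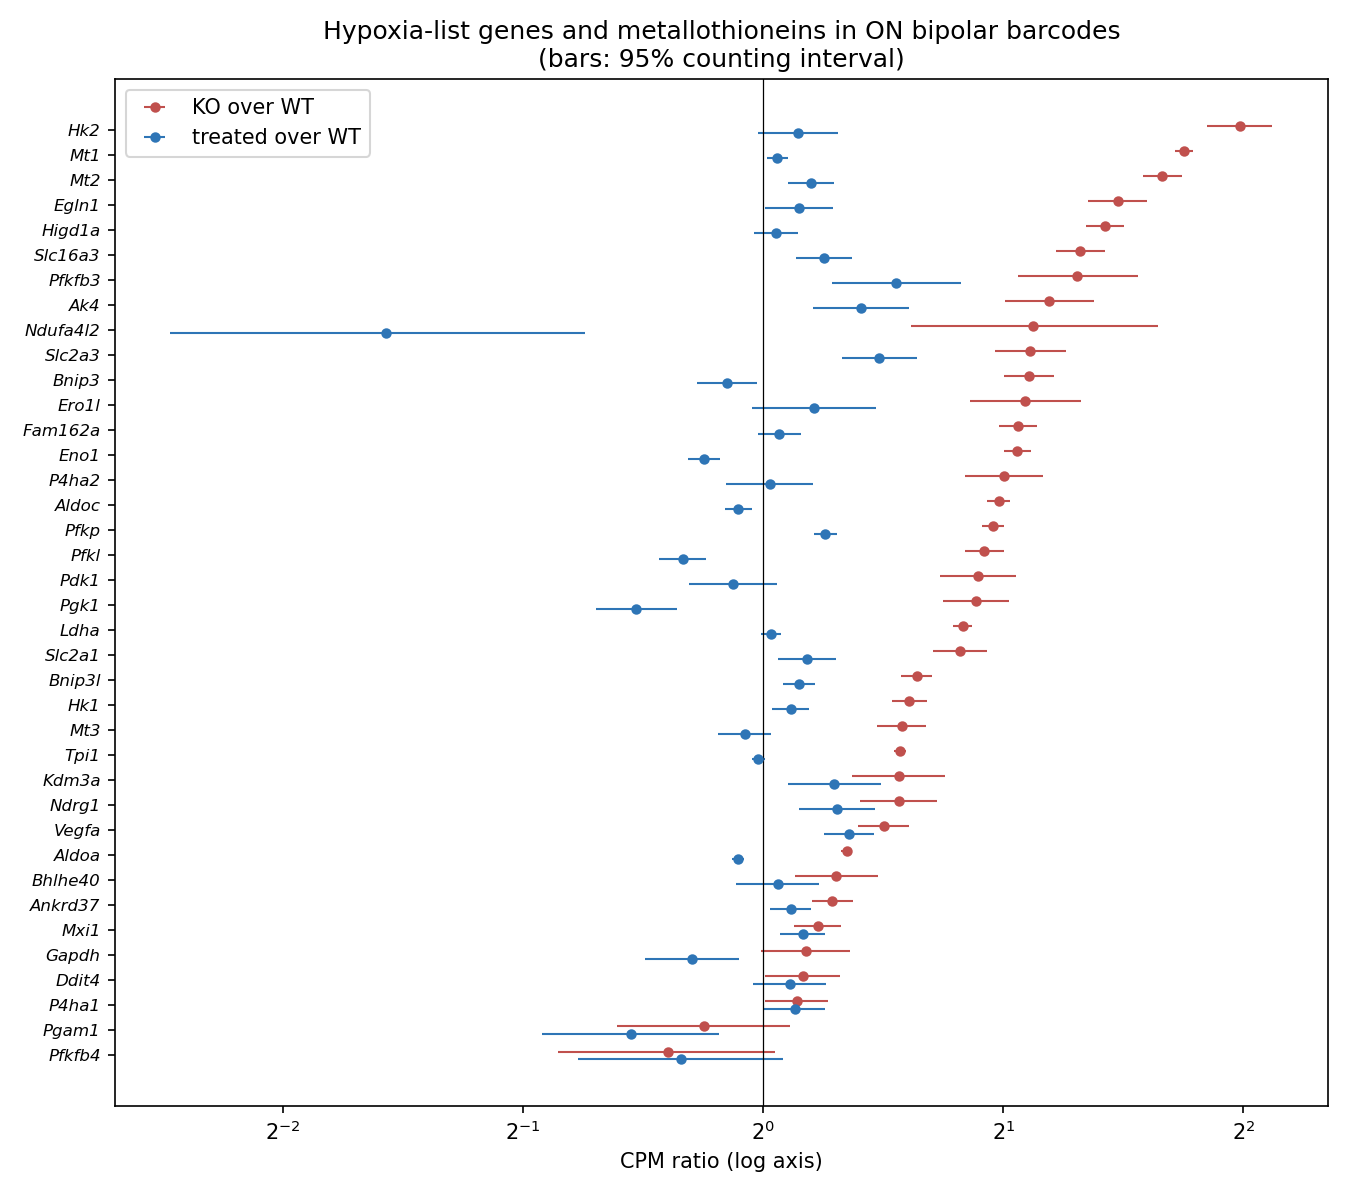
CPM ratio to WT (log axis) of each hypoxia-list gene tested and of 3 metallothioneins in bipolar barcodes, for the KO (red) and treated (blue) libraries, ordered by the KO ratio; bars are 95% counting intervals. In the KO library 33 of the 35 hypoxia-list genes lay above 1, while the treated points scatter around 1 with Pfkfb3 at 1.47 and Ndufa4l2 at 0.337.

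The metallothioneins are small proteins that bind zinc and copper. Mt1 was at 634, 2135 and 659.8 CPM, Mt2 at 129.6, 411 and 149 CPM and Mt3 at 112, 167 and 106 CPM. Their treated to WT ratios were 1.04 (interval 1.01 to 1.07), 1.15 (interval 1.07 to 1.23) and 0.948 (interval 0.878 to 1.02), and none was called, while Mt1 and Mt2 were called higher in the KO library. The 16 tested genes of the axon injury and neuron stress list had a median log2 ratio of 0.11 for treated, with only Stmn2 called, and 0.76 for KO, with 7 called higher and 1 lower. In that list Gadd45b, a stress-induced regulator of DNA repair, was at 23.8, 59.0 and 25.8 CPM, and Stat3, the factor downstream of many cytokines, at 62.5, 122 and 89.1 CPM with a treated ratio of 1.43 (interval 1.30 to 1.56). Immediate-early genes, which respond within minutes to activity or handling, had a median of 0.21 for treated (17 of 22 above WT, 0 called) and 0.53 for KO. Egr1 was at 163, 422 and 226 CPM and Junb at 122, 242 and 124 CPM.

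The machinery of the bipolar synapse was near WT. Of the mGluR6 cascade without Grm6 and Trpm1, which defined the class, 15 genes were tested, with median log2 ratios of 0.05 for treated and -0.02 for KO and none called in either. Gng13, the γ subunit of the G protein of these cells, was at 4771, 4696 and 4715 CPM, and Gnao1, its α subunit, at 818, 784 and 886 CPM. Gpr179, which anchors the regulators of that G protein, was at 411, 365 and 402 CPM. Nyx, a leucine-rich protein that places TRPM1 at the dendrite tip, was at 43.6, 42.5 and 38.6 CPM. Transcription factors and markers of bipolar identity (21 genes) had a median of -0.02, presynaptic release genes (32) 0.06, nuclear genes of oxidative phosphorylation (38) -0.08 with 31 below WT, and clock genes (19) 0.09, and the only gene of these lists called in the treated library was the glutamate transporter Slc17a6, described below. Rod bipolar barcodes made up 33.2% of the class in WT, 39.5% in KO and 39.2% in the treated library.

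Adamts13 was nearly absent from WT and KO bipolar cells and present in treated ones. It encodes the protease that cuts von Willebrand factor (chr2:26973416-27009628, plus strand, mm10), and it was at 0.0839 CPM in the WT, 0.101 in the KO and 6.42 in the treated library. Reads were found in 139 of 2003 treated and 2 of 2195 WT barcodes, and the treated level was 76.5-fold (interval 14.1 to 2393) above WT. In cones it had no reads in WT or KO and 8.69 CPM in the treated library, at least 22.7-fold higher, in 88 barcodes. In amacrine barcodes it was at 0, 0.0511 and 8.58 CPM, too few reads to be called, in Müller glia at 0.218, 0.0252 and 12.3 CPM, and in rods at 7.47 CPM in the treated and 0 in the WT library. The WT and KO levels were at or near 0 in each of these cell classes, and the treated level was higher in all of them.

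Ednrb, the endothelin B receptor (chr14:103814625-103844402, minus strand), is named after its values were seen. It was at 33.4 CPM in the WT, 18.5 in the KO and 74.7 in the treated library, a treated level 2.23-fold (interval 1.99 to 2.51) above WT, in 568 treated and 393 WT barcodes. Here the KO library lay below WT and the treated library above it. Within rod bipolar barcodes the levels were only 0.809, 2.92 and 3.72 CPM, so nearly all of these reads came from the other ON bipolar cells. Kcnd2, a potassium channel of the A type, was at 4.00, 7.83 and 10.1 CPM, and the treated level was 2.54-fold (interval 1.82 to 3.58) above WT. In rod bipolar barcodes alone it was at 0.578, 2.12 and 0.573 CPM, nearly equal in WT and treated. The part that the mix of other bipolar types had in this difference was not tested. Ccl17, a chemokine, was at 0.755, 0.941 and 3.89 CPM, 5.15-fold (interval 2.55 to 11.5) above WT in 51 treated and 13 WT barcodes. The noncoding RNA Lncppara was at 6.29, 9.58 and 12.8 CPM and Nab2, a corepressor of EGR factors, at 3.16, 14.2 and 7.07 CPM, both chosen after their values were seen. Their ratios were 2.03 (interval 1.54 to 2.69) and 2.24 (interval 1.52 to 3.33). Of the 18 genes called higher, the 6 also called in cleaned barcodes were Adamts13, Ednrb, Kcnd2, Ccl17, Lncppara and Spp1.

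Spp1 and most of the other genes called higher had more than 50% of their treated reads in 5 barcodes. Spp1, a secreted phosphoprotein, had no WT reads and was at 3.10 CPM in the treated library, at least 13.4-fold higher, from 5 barcodes. Calb2, a calcium buffer of amacrine and ganglion cells, was at 1.43, 41.4 and 31.1 CPM, with 95.8% of its treated reads in 5 barcodes, and in cleaned barcodes at 1.36, 17.9 and 1.91 CPM. Nefm, Nrn1, Pvalb, Sncg and Slc17a6, genes of ganglion or amacrine cells, rested on 18, 6, 6, 11 and 8 treated barcodes with 94.2%, 99.3%, 99.4%, 96.2% and 97.1% of reads in 5 of them. Nefl, a neurofilament gene, was at 6.91, 14.9 and 24.5 CPM (65.1% in 5 barcodes), and Stmn2, a tubulin-binding protein of growing axons, at 3.02, 12.2 and 9.52 CPM (85.8%). Atp1b1, a sodium pump subunit, had 77.7% in 5 barcodes. The ganglion cell list as a whole (7 of 9 genes tested) had 7 of 7 above WT and summed to 27.2 CPM in the WT, 68.6 in the KO and 76.6 in the treated library, and in cleaned barcodes to 21.8 CPM in the WT, 27.3 in the KO and 30.6 in the treated library. Thy1, a surface protein of ganglion cells, was at 5.93, 11.3 and 14.7 CPM in the whole class and 5.55, 6.13 and 10.3 CPM in cleaned barcodes. Thy1 and Atp1b1 were chosen after their values were seen.

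The 11 genes called lower in treated bipolar barcodes included Olfr77 and Cdk5rap1, whose reads were spread over many cells. Olfr77, annotated as an olfactory receptor (chr9:19916865-19929124, plus strand), was at 66.5 CPM in the WT, 45.1 in the KO and 25.4 in the treated library, a treated level 2.62-fold (interval 2.30 to 2.99) below WT, with reads in 1312 WT and 707 treated barcodes. Cdk5rap1, a mitochondrial enzyme that modifies transfer RNA (chr2:154335380-154373010, minus strand), was at 16.6 CPM in the WT, 14.3 in the KO and 5.63 in the treated library, 2.95-fold (interval 2.23 to 3.93) below WT, in 279 WT and 108 treated barcodes. For Cdk5rap1 the KO library was close to WT, whereas for Olfr77 it lay between the other libraries. Polr2k, a subunit of RNA polymerases, followed the same order at 6.77, 4.17 and 2.79 CPM.

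Opn1sw, a cone transcript, was at 290.3, 259 and 121 CPM in bipolar barcodes and at 18.2, 16.3 and 7.89 CPM after cleaning, 2.41-fold (interval 2.26 to 2.56) below WT in the whole class. Its level in cones was also lower, as given below. Smaller levels were those of Susd2, a membrane protein, at 3.22, 3.90 and 0.991 CPM, Katnal2, related to the severing enzyme katanin, at 4.78, 5.68 and 1.57 CPM, Xlr3a, an X-linked gene, at 6.15, 8.61 and 2.16 CPM, and Pabpc5, a poly(A)-binding protein, at 3.44, 2.42 and 1.20 CPM. In each of these 4 genes the treated library was the lowest of the 3. Cartpt, a neuropeptide precursor, was at 36.6, 194 and 3.96 CPM, with 92.2% of WT reads in 5 barcodes. Fmo2, a monooxygenase, was at 3.66, 0 and 0.365 CPM from 18 WT and 3 treated barcodes (57.3% in 5), and Egfl8 at 3.97, 2.45 and 1.51 CPM (60.6% in 5).

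Markers of other cells differed in bipolar barcodes as well. The 4 haemoglobin genes summed to 10.5 CPM in the WT, 0.504 in the KO and 593 in the treated library, and to 10.3 CPM in the WT, 0.514 in the KO and 5.34 in the treated library after cleaning. The 12 endothelial markers summed to 220.1 CPM in the WT, 115 in the KO and 123 in the treated library (10 of 11 tested were below WT), and to 105 CPM in the WT, 114 in the KO and 90.5 in the treated library after cleaning. Microglia markers summed to 26.7 CPM in the WT, 96.3 in the KO and 9.91 in the treated library. Interferon response genes had a median log2 ratio of -0.43 with 12 of 15 below WT, and -0.11 in cleaned barcodes; Ifitm3 and Bst2 were called lower, with 93.4% and 80.0% of their WT reads in 5 barcodes. The part of these other cells in the differences above was not tested beyond the cleaned values.

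**Figure D3:**
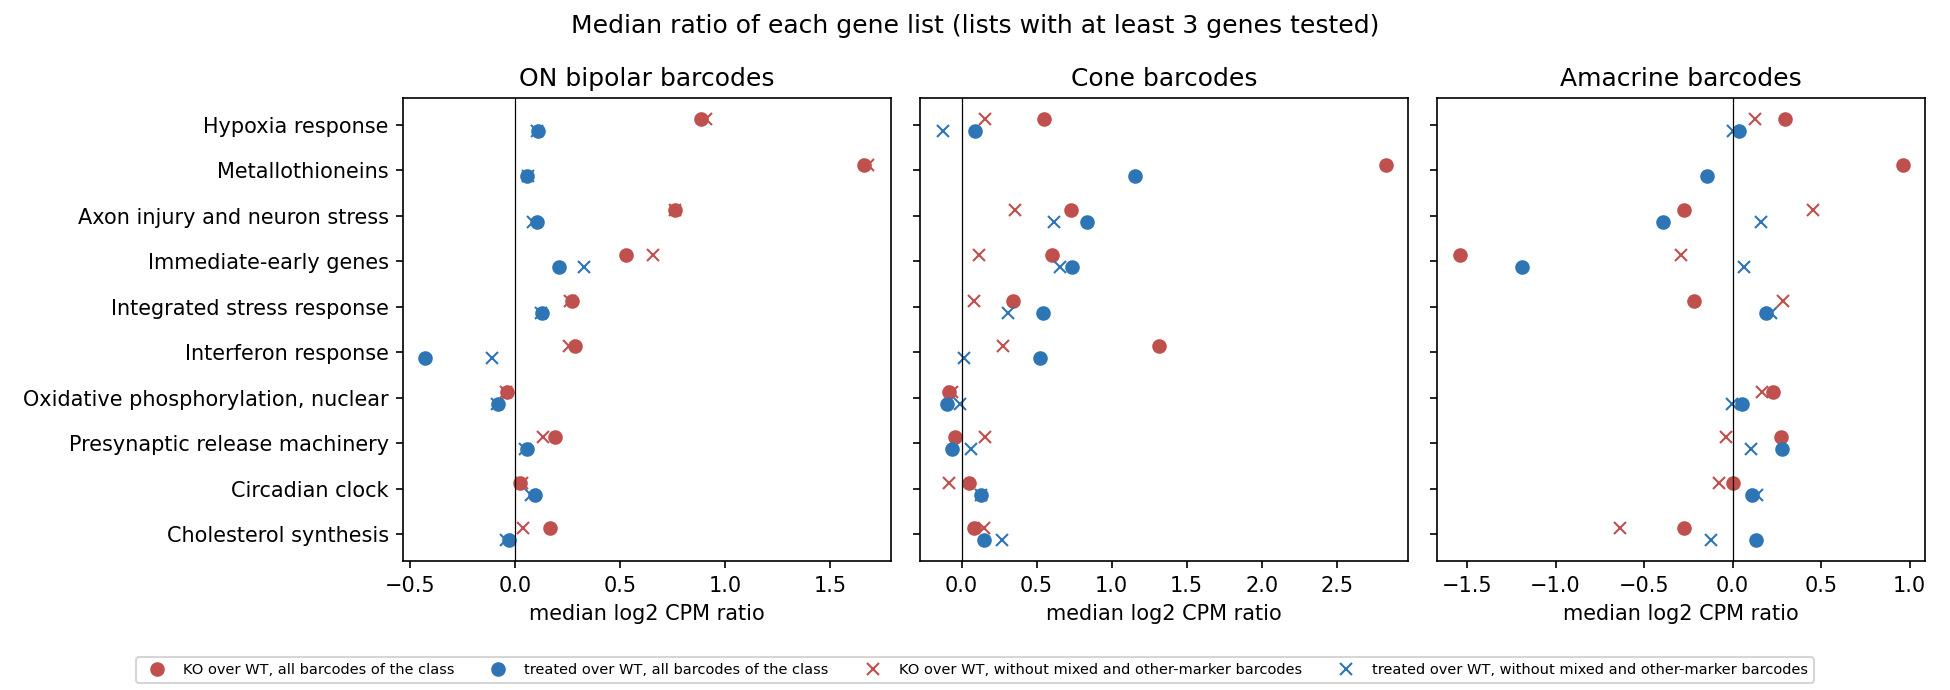
Median log2 CPM ratio to WT of each gene list in bipolar, cone and amacrine barcodes for the KO (red) and treated (blue) libraries; circles use all barcodes of a class and crosses the cleaned barcodes, and a list needs at least 3 tested genes. In bipolar barcodes the hypoxia median was 0.89 in KO and 0.11 in treated, and in cones the immediate-early median was 0.74 in treated with all and 0.66 with cleaned barcodes.

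In cones, treated cells carried more transcripts of immediate-early and injury genes than WT cones, and a lower level of Opn1sw. Müller glia transcripts lay higher as well: 18 of 20 were above WT, 0 were called, and their sum was 12188 CPM in the WT, 22184 in the KO and 16702 in the treated library, against 982 CPM in the WT, 1259 in the KO and 966 in the treated library in cleaned cones. All genes tested in cones gave 1.08% called higher and 0.687% lower, with a median log2 ratio of 0.06. The immediate-early list (23 of 25 tested) had a median of 0.74, with 22 above WT, 8 called higher and 1 lower. In cleaned cones 14 were tested, all 14 were above WT, the median was 0.66 and 2 were called, Junb and Atf3. The KO medians were 0.60 in all and 0.12 in cleaned cones.

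Fos, the prototype of these genes, was at 1203, 1439 and 1949.5 CPM in cones and at 403, 252 and 680.3 CPM in cleaned cones, with ratios of treated to WT of 1.62 (interval 1.58 to 1.66) and 1.69. Egr1, a zinc finger factor induced by activity, was at 558, 728 and 946 CPM and, cleaned, 239, 231 and 462 CPM. In both genes the cleaned KO level was at or below WT and the treated level above it. Atf3, a factor of injured neurons and glia, was at 40.2, 192 and 129 CPM, a treated level 3.22-fold (interval 2.83 to 3.67) above WT, and at 6.30, 11.5 and 20.2 CPM in cleaned cones. Klf6 was at 101, 293 and 271 CPM and Nr4a1, a nuclear receptor, at 61.4, 89.2 and 133 CPM. After cleaning these were 10.9, 8.52 and 11.3 CPM and 24.0, 34.7 and 40.5 CPM. The member called lower was Nr4a2, at 5.55, 4.52 and 1.87 CPM with 72.5% of WT reads in 5 barcodes.

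All 19 tested genes of the axon injury and neuron stress list were above WT in treated cones, with a median of 0.83 and 6 called, and in cleaned cones all 9, with a median of 0.61 and 2 called, Gadd45b and Atf3. The KO medians were 0.73 and 0.36. Edn2, endothelin 2, which injured photoreceptors release, was at 0.370, 9.04 and 4.79 CPM, a treated level 13-fold (interval 4.02 to 68.5) above WT that rested on 41 barcodes, and at 0.350, 7.57 and 5.1 CPM after cleaning. It was left out of the ranking because treated rods held it at 31.3 CPM, against 1.78 in WT rods. Gadd45b was at 17.7, 65.0 and 42.9 CPM and, cleaned, at 6.74, 19.5 and 18.4 CPM. Socs3 and Cebpd, cytokine-induced genes of glia, were at 191, 237 and 454 CPM and 436, 710.1 and 917 CPM, and at 24.8, 36.1 and 31.7 CPM and 4.29, 26.6 and 9.21 CPM after cleaning. The levels of Socs3 and Cebpd were much lower without the mixed barcodes, and the treated level of all 4 genes was still above WT there.

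Cone hypoxia genes (36 tested) had a median of 0.09 for treated and 0.55 for KO, and -0.13 and 0.15 in cleaned cones. Called higher were Adm, the peptide adrenomedullin, at 1.57, 41.0 and 6.15 CPM with 58.6% of its treated reads in 5 barcodes, and Ndufa4l2, a mitochondrial protein, at 29.0, 451 and 68.6 CPM. Both lay below WT after cleaning, at 0.175, 0.676 and 0 CPM and 1.49, 17.8 and 1.26 CPM. Pgk1 was at 45.1, 69.8 and 26.3 CPM, and in cleaned cones, where it was called lower, at 42.8, 48.5 and 21 CPM. Mt1 and Mt2 were called higher at 523, 3702 and 1206 CPM and 87.8, 783 and 195 CPM, and in cleaned cones the levels were 35.4, 207 and 50.6 CPM and 4.55, 31.2 and 6.90 CPM. Cebpb, a factor of the stress response, was called higher at 49.4, 71.8 and 141 CPM and was at 2.63, 2.16 and 5.86 CPM after cleaning. Interferon genes (22 tested) had medians of 0.52 for treated and 1.31 for KO, and 0.02 and 0.28 over the 4 genes left after cleaning.

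The opsins showed a different mix of cones in each library. Barcodes with at least as many reads of Opn1mw as of Opn1sw made up 53.8% of WT (exact binomial interval 50.7% to 56.8%), 39.4% of KO (36.1% to 42.7%) and 68.6% of treated cones (65.5% to 71.6%). Thinned to 5000 reads a barcode, the shares were 53.1%, 39.6% and 68.3%. Opn1sw was at 6971 CPM in the WT, 6855 in the KO and 3462 in the treated library, a treated level 2.01-fold (interval 1.98 to 2.04) below WT, and Opn1mw at 4908 CPM in the WT, 2528 in the KO and 4283 in the treated library. In cleaned cones Opn1sw was at 10799.6, 14609.7 and 6443 CPM and no longer called. The treated library was thus lowest in Opn1sw and the KO library lowest in Opn1mw. Which region of the retina each suspension sampled, and from how many animals, was not recorded in the sources used here, and its part in these shares was not tested. Vax2, a factor of the ventral retina, was at 20.3, 41.8 and 13.1 CPM, and En2, a homeobox gene, at 4.35, 8.11 and 1.27 CPM.

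Within each opsin group the difference in Opn1sw was smaller. Opn1sw was 0.535 times WT in treated cones with more Opn1mw and 0.749 times WT in those with more Opn1sw. The ratios of Opn1mw were 0.737 and 1.05, and those of Vax2 1.12 and 0.786. Since the groups were cut on the opsins, opsin levels within them describe that cut as well. Hopx and Chrnb4, which the cut did not use, held their direction in both groups, with ratios in the same order of 3.06 and 3.52 for Hopx and 2.02 and 1.72 for Chrnb4.

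**Figure D4:**
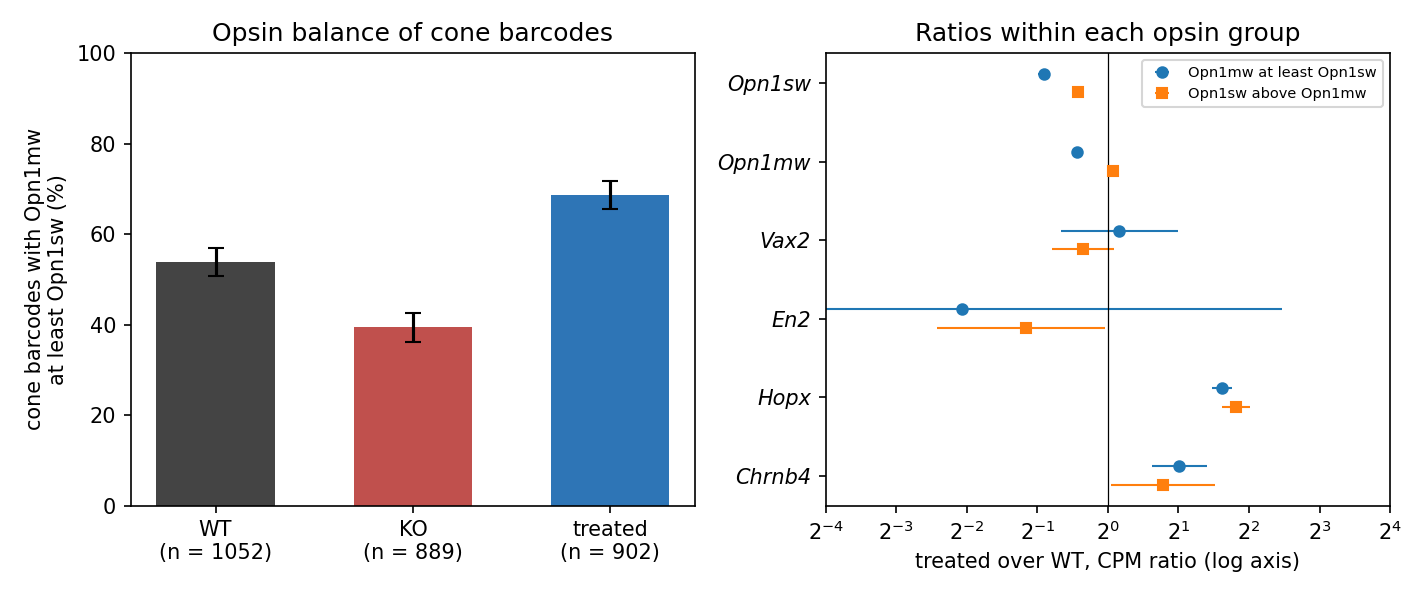
Left, share of cone barcodes (%) with at least as many Opn1mw as Opn1sw reads in the WT, KO and treated libraries (53.8%, 39.4% and 68.6%), with exact 95% binomial intervals. Right, treated to WT CPM ratio (log axis) of 6 genes in cones with Opn1mw at least Opn1sw (blue circles) and with Opn1sw above Opn1mw (orange squares), bars being 95% counting intervals; Hopx and Chrnb4 lie above 1 in both groups, and the interval of En2 in the first group runs past the left edge.

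Of the phototransduction list Opn1sw was the only gene called. Without the 5 genes of the class rule, 19 genes were tested, with medians of -0.20 for treated (3 above and 16 below WT) and -0.32 for KO. In cleaned cones the medians were -0.10 and -0.08 and none was called in the treated library. Cngb3, a subunit of the cone channel, was at 224, 158 and 138 CPM and, cleaned, at 324, 283 and 217 CPM, with a treated ratio of 0.616 (interval 0.570 to 0.666) in the whole class. Its partner Cnga3 was at 51.5, 32.6 and 49.0 CPM, and Guca1a, the guanylate cyclase activator, at 3939, 3157 and 3375 CPM. Thrb, the thyroid hormone receptor that specifies cones for Opn1mw, was at 447, 346 and 451 CPM, and 14 genes of cone identity had a median of -0.04 with none called. Summed over the 30 rod transcripts the cone level was 58799 CPM in the WT, 39957 in the KO and 48597 in the treated library. In cleaned cones it was 65127, 53026 and 55361 CPM, and the part of rod transcripts in the cleaned values was not tested.

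Among the lower genes of cones, some had KO levels near the treated level. Arhgdib, an inhibitor of small GTPases, was at 70.4, 36.9 and 31.5 CPM, and Tcea3, an elongation factor, at 26.8, 14.9 and 11.4 CPM. In both the KO level was below WT, and this order also held for Nphs1, the adhesion protein nephrin, at 19.0, 10.8 and 8.86 CPM, and Slamf1, an immune cell receptor, at 9.06, 3.73 and 3.52 CPM. Ccdc155, which links meiotic chromosomes to dynein, was at 6.06, 2.80 and 1.99 CPM, and Olfr77 at 65.2, 38.9 and 29.3 CPM.

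In other lower genes the KO level was nearer to WT than to the treated level. Cdk5rap1 was at 15.9, 15.4 and 4.92 CPM, 3.23-fold (interval 2.22 to 4.82) below WT, and Lrp2bp at 5.92, 4.57 and 1.57 CPM. Gpi-ps, annotated as a pseudogene of glucose phosphate isomerase that can share reads with its parent, was at 7.58, 5.68 and 3.05 CPM. En2, given above, had its highest level in the KO library. Rsph10b, a protein of ciliary spokes, had a KO level midway, at 13.1, 9.60 and 6.11 CPM, but was at 5.08, 4.46 and 5.75 CPM in cleaned cones, where the treated level was above WT. Cdk5rap1, En2 and Olfr77 were among the 4 genes called lower in both the whole and the cleaned class. Called in cleaned cones but not in the whole class, and chosen after their values were seen, were Vax2 at 22.5, 35.7 and 9.73 CPM and Irx6, a homeobox gene, at 10.1, 9.06 and 2.82 CPM.

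Hopx was the most abundant of the cone genes that stayed higher after cleaning. It encodes a small homeodomain protein that does not bind DNA (chr5:77086988-77115121, minus strand), and it is named here after its values were seen. Its level was 105 CPM in the WT, 83.7 in the KO and 346 in the treated library, 3.29-fold (interval 3.04 to 3.56) above WT, with reads in 726 treated and 563 WT barcodes, and 83.0, 41.0 and 214 CPM in cleaned cones. Müller glia held it at 167, 117 and 532 CPM, so a higher treated level was present in both cell types, and bipolar barcodes at 3.94, 2.35 and 11.2 CPM. Chrnb4 and Chrna3, subunits of 1 type of nicotinic acetylcholine receptor, were also chosen after their values were seen. Chrnb4 was at 14.3, 16.0 and 30.8 CPM, 2.15-fold (interval 1.71 to 2.72) above WT in 251 treated and 135 WT barcodes, and Chrna3 at 3.47, 6.99 and 9.08 CPM, 2.62-fold (interval 1.65 to 4.25). For Chrnb4 the KO library was near WT, and for Chrna3 it was near the treated level. The 4 genes called higher in both the whole and the cleaned class were Hopx, Chrnb4, Rn7s2, a 7SL RNA, at 5.92, 5.22 and 13.4 CPM, and Zc3hav1, an antiviral zinc finger protein, at 4.62, 13 and 10.8 CPM (cleaned, 2.63, 0.946 and 10.7 CPM). Padi2, Ctdp1, Tmod1 and Itga6 were called higher in cleaned cones only. Of these the integrin Itga6 was at 4.73, 8.11 and 16.6 CPM there. These 4 genes, Rn7s2 and Zc3hav1 were chosen after their values were seen.

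Further genes near the top of the ranking were low in level. Kcng1, a potassium channel subunit, was at 1.71, 1.86 and 6.62 CPM, 3.87-fold (interval 2.08 to 7.70) above WT in 63 treated and 17 WT barcodes, and at 2.63, 2.70 and 9.83 CPM in cleaned cones. Ckap2, a spindle protein, was at 1.66, 2.19 and 7.55 CPM and Vdr, the vitamin D receptor, at 1.34, 0.513 and 5.22 CPM. For these 3 genes the KO level was near or below WT. Gpnmb, a glycoprotein of phagocytes and pigment cells, was at 0.832, 0.885 and 5.22 CPM (52.8% of treated reads in 5 barcodes), and Adgrb1, an adhesion receptor, at 4.95, 15.7 and 18.8 CPM (69.3%). Tagln, a smooth muscle and pericyte protein, was at 0.971, 9.41 and 7.21 CPM and Csrnp1, a nuclear protein, at 4.39, 16.4 and 16.6 CPM, and in cleaned cones they were at 0.438, 0 and 0.314 CPM and 0.0875, 1.08 and 1.15 CPM. Rsad2, an interferon-induced enzyme, was at 0.832, 17.1 and 5.05 CPM (83.2%), and C1ql1, a secreted protein of the C1q family, at 3.47, 69.5 and 17.2 CPM (79.8%). Lhx1, the defining factor of horizontal cells, rested on 8 treated barcodes (97.2%), at 0.324, 3.12 and 4.62 CPM, and all 7 tested horizontal cell markers were above WT, their sum being 92.4 CPM in the WT, 262 in the KO and 178 in the treated library. Haemoglobin genes summed to 892 CPM in the WT, 0.419 in the KO and 958 in the treated library in cones, and to 1680.2 CPM in the WT, 0.406 in the KO and 3.56 in the treated library after cleaning. Endothelial markers summed to 407 CPM in the WT, 493 in the KO and 372 in the treated library, with 8 of 10 tested genes called lower in the treated library, and to 20.7 CPM in the WT, 19.1 in the KO and 12.1 in the treated library after cleaning. The part of these other cells in the differences of the whole class was not tested beyond the cleaned values.

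In amacrine barcodes Gabra2, Cbln2 and Igfbp2 were higher in the treated than in the WT library, and their KO levels were also above WT. Of 10 neuropeptide genes tested, 6 were above and 4 below WT, with 2 called higher (Npy and Scg2) and 3 lower (Sst, Cck and Pdyn). The list summed to 8157 CPM in the WT, 5387 in the KO and 6436 in the treated library. The largest part of each sum was Cartpt, not called, at 5840 CPM in the WT, 2775 in the KO and 4210 in the treated library. With 71 WT and 90 treated barcodes these levels rest on few cells. All genes tested gave 0.705% called higher and 2.78% lower, with a median log2 ratio of 0.08. GABAergic barcodes made up 80.3% of WT, 93.1% of KO and 84.4% of treated amacrine barcodes, and glycinergic ones 12.7%, 5.43% and 14.4%. Without the 6 genes of the class rule, 11 genes of amacrine identity and transmitter use had a median of 0.33, with 9 above and 2 below WT. Slc32a1, the vesicular transporter of GABA and glycine, was at 385, 509 and 406 CPM and not called.

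Gabra2 encodes an α subunit of the GABA-A receptor and was chosen after its values were seen. Gabra2 was at 43.8 CPM in the WT, 87.3 in the KO and 131 in the treated library, 3.0-fold (interval 1.96 to 4.73) above WT, with reads in 42 treated and 23 WT barcodes, and at 60.3, 102 and 167 CPM after cleaning. Its KO level lay between WT and treated. Cbln2, a secreted organiser of synapses, was at 60.9 CPM in the WT, 267 in the KO and 194 in the treated library, 3.18-fold (interval 2.22 to 4.65) above WT in 22 treated and 12 WT barcodes (51.7% in 5). Its relative Cbln1 was at 9.11, 35.9 and 38.2 CPM (79.6%). Nptx1 and Nptx2, pentraxins that gather glutamate receptors, were at 23.3, 81.0 and 69.4 CPM (50.6%) and 83.7, 140.2 and 186 CPM, and Olfm3, an olfactomedin that binds glutamate receptors, at 13.7, 61.2 and 61.2 CPM (75.8%). Cbln2, Cbln1, the pentraxins and Olfm3 were likewise chosen after their values were seen.

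Among peptide genes, Scg2, the granin secretogranin II, was at 390.0 CPM in the WT, 607 in the KO and 836 in the treated library, 2.14-fold (interval 1.85 to 2.49) above WT, with reads in 74 treated and 53 WT barcodes. Its reads lay in more barcodes than those of Npy, Sst or Cck. The Scg2 call was kept under 9 of the 12 alternative settings given below, and those of Npy and Sst under 11 and 10. Npy, neuropeptide Y, was at 14.8, 229 and 224 CPM, but its reads came from 8 treated and 4 WT barcodes (98.8% in 5). Sst, somatostatin, was at 794, 0.0511 and 0 CPM: its WT reads came from 1 barcode, and the treated level was at least 213-fold lower. Crhbp, which binds corticotropin-releasing hormone, was at 128, 2.10 and 0 CPM, also from 1 WT barcode, at least 34.2-fold lower. Pdyn, prodynorphin, was at 109, 3.22 and 1.56 CPM (99.0% of WT reads in 5 barcodes), and Cck, cholecystokinin, at 87.7, 21.5 and 21.8 CPM (100% in 4 WT barcodes). Tac1, the substance P precursor, was at 46.1, 238 and 83.4 CPM and not called.

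Igfbp2, a binding protein of insulin-like growth factors, was at 51.8, 173 and 195 CPM, 3.76-fold (interval 2.57 to 5.66) above WT (80.8% in 5 barcodes), and Slc24a2, a sodium, calcium and potassium exchanger, at 19.9, 68.7 and 71.0 CPM (63.7%). Nefh, the heavy neurofilament protein, was at 18.2, 84.9 and 84.6 CPM (87.6%). For all 3 genes the KO level was close to the treated level. Igfbp2 and Nefh were named after their values were seen.

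Several genes near the top rested on 1 to 6 treated barcodes, among them genes of microglia, astrocytes and ganglion cells. The microglia genes C1qa, C1qb, C1qc and Ctss were at 76.0, 90.9, 54.6 and 65.5 CPM in the treated library, all from 1 barcode, and at 0 in WT, so that they were at least 16.1, 19.2, 11.6 and 13.9 times higher. Cst3, a protease inhibitor abundant in microglia and glia and chosen after its values were seen, was at 466, 415 and 4828 CPM (95.0% in 5 barcodes) and at 293, 359 and 273 CPM after cleaning. Opn4, the photopigment melanopsin of ganglion cells, came from 1 treated barcode at 39.4 CPM and was at 0 in WT and KO, at least 8.34-fold higher. Gfap and S100b, genes of astrocytes, came from 2 and 3 treated barcodes at 2.28, 8.94 and 177 CPM and 8.54, 2.45 and 122 CPM, and Pdgfra, a growth factor receptor of glial precursors, from 5 at 0, 5.72 and 74.5 CPM. Sncg, Onecut2 and Serpinf1 rested on 2, 3 and 6 treated barcodes. Which cells the reads of Pdgfra, Onecut2 and Serpinf1 came from was not tested. Cleaning left C1qa, C1qb, C1qc, Ctss, Opn4, Gfap, S100b and Sncg at 0 in the treated library.

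Müller glia transcripts were lower in treated than in WT amacrine barcodes. Of the 20 Müller transcripts, 19 were tested, 19 were below WT and 13 were called lower, and they summed to 16148 CPM in the WT, 5043 in the KO and 6929.7 in the treated library, or 1657 CPM in the WT, 1631 in the KO and 1501 in the treated library in cleaned barcodes. Col9a1 and Col2a1, collagen chains, were at 467, 18.5 and 16.8 CPM and 165, 20.5 and 11.7 CPM, and Dapl1, an epithelial protein, at 753, 44.1 and 37.0 CPM. In Müller glia of the 3 libraries their levels were 459, 386 and 408 CPM, 197, 265 and 177 CPM and 1183, 868 and 912 CPM. Necab2, a calcium-binding protein, Rrh, a retinal photoisomerase, Col9a3, a collagen chain, and S1pr3, a receptor of sphingosine 1-phosphate, were at 197, 89.4, 97.9 and 98.5 CPM in WT and at 10.1, 5.07, 7.02 and 8.19 in the treated library. In each, 88.4% to 98.8% of WT reads came from 5 barcodes.

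Immediate-early genes were lower as well, with 19 of 21 below WT, 15 called lower and a median of -1.19, and with a median of 0.07 over the 12 genes tested in cleaned barcodes. Fos was at 1862, 578 and 913 CPM with 60.3% of WT reads in 5 barcodes, and at 796, 387 and 767 CPM after cleaning. Arc, a regulator of synaptic strength, was at 75.7, 18.5 and 3.51 CPM (98.5%) and, cleaned, at 2.96, 13.4 and 3.44 CPM. In cleaned barcodes the treated levels of both were close to WT.

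Lower genes that stayed called after cleaning included Calb2, Nnat, Trpm2 and Sst. Calb2, calretinin, was at 359 CPM in the WT, 324 in the KO and 64.3 in the treated library, 5.58-fold (interval 4.11 to 7.69) below WT, with 87.5% of WT reads in 5 of 18 barcodes, and at 613, 264 and 85.4 CPM in cleaned barcodes. Nnat, a small membrane protein of developing neurons chosen after its values were seen, was at 109.9, 107 and 17.9 CPM (87.6% of WT reads in 5 barcodes). Trpm2, a cation channel opened by oxidative stress, was at 53.0, 24.5 and 7.02 CPM (88.2%), also chosen afterwards. In the whole class the KO level of Calb2 and Nnat was near WT and that of Trpm2 lay between WT and treated, while in cleaned barcodes that of Calb2 lay between as well. Presynaptic release genes (23 tested) had a median of 0.28 with 19 above WT and none called, and 0.10 in cleaned barcodes. Hypoxia genes (24 tested) had medians of 0.04 for treated and 0.29 for KO, and Eno1, enolase 1, was called lower at 701, 557 and 262 CPM (54.2% of WT reads in 5 barcodes).

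**Figure D5:**
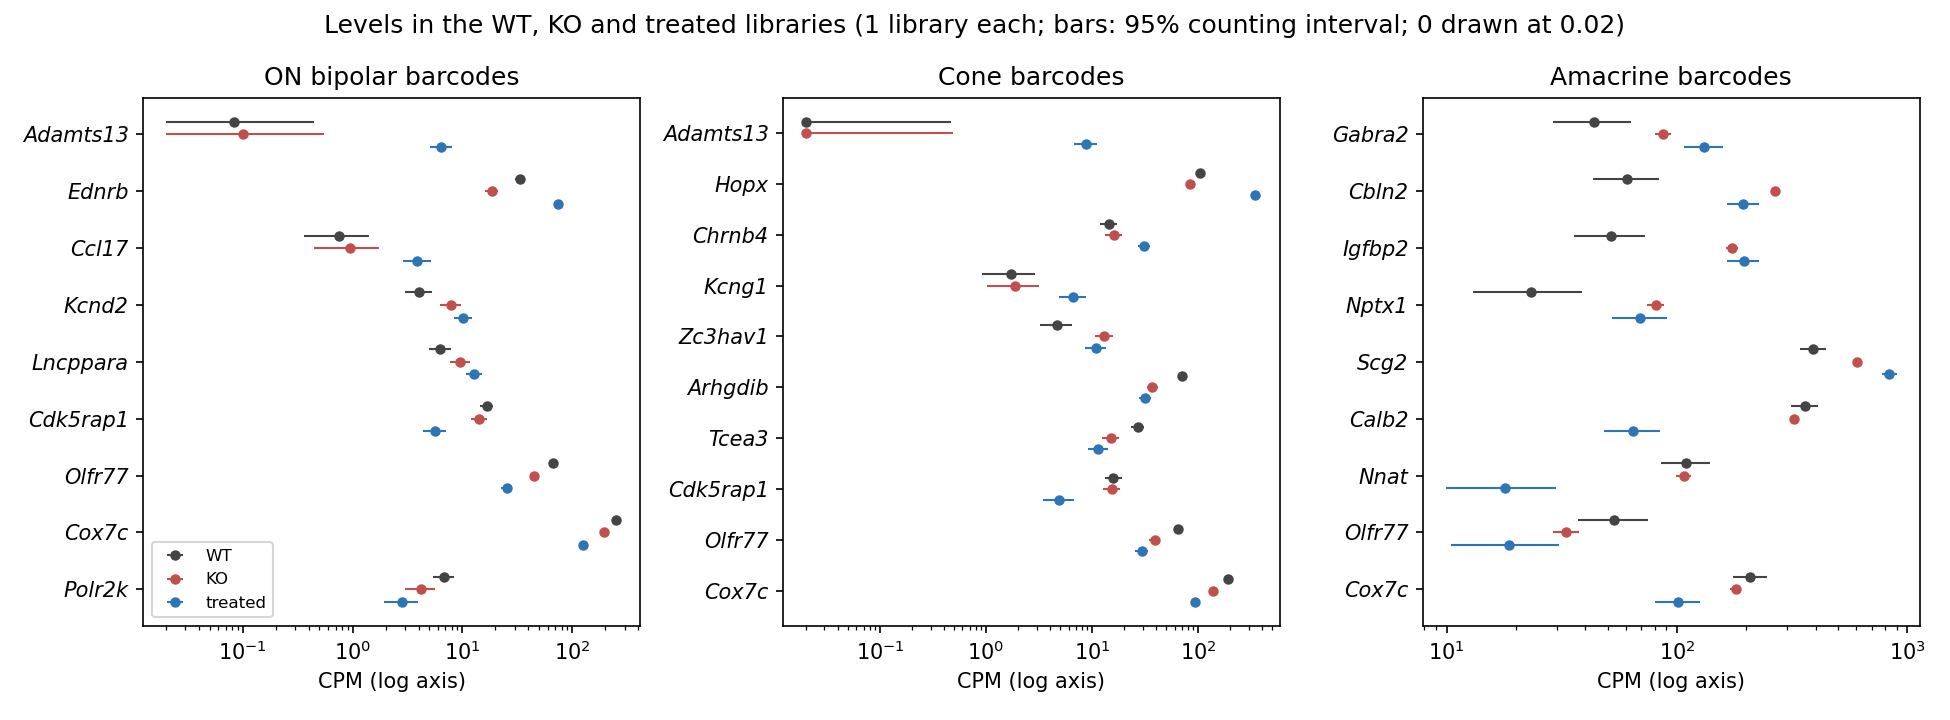
Level (CPM, log axis) of selected genes in the WT (grey), KO (red) and treated (blue) libraries in bipolar, cone and amacrine barcodes; bars are 95% counting intervals and values of 0 are drawn at 0.02. Adamts13 is high in the treated library alone, Ednrb and Hopx are lowest in KO and highest in treated, and Olfr77 and Cox7c are highest in WT and lowest in treated in all 3 classes.

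Olfr77 was the only gene called in the same direction in all 3 classes. Its treated level was 2.62-fold (interval 2.30 to 2.99), 2.22-fold (interval 1.89 to 2.61) and 2.86-fold (interval 1.52 to 5.65) below WT in bipolar, cone and amacrine barcodes, with the amacrine levels at 53.5, 33.1 and 18.7 CPM. Müller glia gave the same order at 65.2, 44.7 and 26.9 CPM, and WT and treated rods were at 105 and 29.2 CPM. Cox7c, a subunit of cytochrome c oxidase, followed the same order. It was at 249, 194 and 126 CPM in bipolar barcodes, a ratio of 0.509 (interval 0.478 to 0.541) that stayed just short of the 2-fold line, at 192, 138 and 93.7 CPM in cones, 2.05-fold (interval 1.87 to 2.25) below WT, and at 208, 179.8 and 101 CPM in amacrine barcodes, 2.06-fold (interval 1.55 to 2.75) below WT. It was the only called member of the 38 nuclear genes of oxidative phosphorylation, whose medians were -0.08, -0.10 and 0.05. In Müller glia Cox7c was at 140.4, 116 and 67.3 CPM. Cdk5rap1 was called lower in bipolar and cone barcodes, and in amacrine barcodes, where few reads fell on it, it was at 10.8, 13.3 and 8.58 CPM with a ratio of 0.793 (interval 0.235 to 2.68). For Olfr77, Cox7c and Adamts13 the treated library differed from WT in neurons and glia alike, and with 1 library a group, treatment, animal and library preparation cannot be told apart.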

How the data were processed

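Single-cell suspensions of mouse retina were profiled in 3 libraries, 1 per group. The authors deposited 1 table of estimated counts per gene and barcode for each library. Per the submitters' processing notes the build was mm10 and the tool Partek 9.0. The aligner, the counting settings and the cell filter were not given in the sources used here. The deposited expected counts appear to be reads not collapsed to molecules, as read from the values: over genes seen in at most 1% of barcodes and values up to 10, the estimated reads per molecule were 2.77 in WT, 2.87 in KO and 3.19 in the treated library. Of nonzero values, 2.33% to 2.39% were not whole (tolerance 0.001). Values were rounded to whole reads, which set 3.33% to 3.39% to 0, and for intervals divided by the reads per molecule.

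Of 6092, 10769 and 9835 barcodes, 6081, 10239 and 8917 had at least 500 genes and at most 20% mitochondrial reads. Their median reads were 14792, 8408 and 9708, over 24071 genes. Reads were summed per library and class and scaled to CPM of the class. Ratios carry exact conditional binomial 95% intervals on molecule equivalents, and levels exact Poisson ones. With 1 library per group no test was run. No doublet caller was run, and barcodes with markers of several types were left out as an alternative. Where a gene had no reads in 1 library, its fold was computed against a floor of 3 molecule equivalents per library.

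Genes named by rule were the 12 highest and 12 lowest called ratios per class (ordered with a prior count of 0.5) after the exclusions given above, genes called in all 3 classes, and list members as examples. A gene with more than 50% of its reads in 5 barcodes is named with that share. The members and lists were chosen with earlier results of these data known. Results were recomputed under 12 other settings, 1 of them chosen after the data were seen. The interval and call rule were tested on simulated data. Gene positions are from GENCODE M21. Python 3.11.15, numpy 2.4.6, pandas 2.3.3, scipy 1.17.1 and matplotlib 3.10.9 were used. Some genes that met the call rule are not reported here.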

Additional observations from a re-analysis of the deposited data

How the results depend on the processing

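Each class was recomputed under 12 alternatives. The number of genes tested changed as well, and the counts are to be read against it. In the main setting it was 9880 in bipolar, 10246 in cone and 4588 in amacrine barcodes. Taking reads as molecules gave 67 genes higher and 54 lower of 10694 in bipolar barcodes. It gave 241 and 55 of 11471 in cone, and 201 and 292 of 8279 in amacrine barcodes. The intervals then narrow and more genes reach the minimum, and the part of each was not tested. A minimum of 10 molecule equivalents gave 29 higher of 10693 in bipolar, and 67 higher and 148 lower of 8303 in amacrine barcodes. Leaving out the 5 barcodes richest in each gene gave 9 higher of 9653 in bipolar and 24 lower of 9807 in cone barcodes. In amacrine barcodes it gave 15 higher and 9 lower of 3179. The mean of per-barcode CPM gave 11 higher and 21 lower of 9880 in bipolar, and 23 and 52 of 4588 in amacrine barcodes. Doubled class thresholds gave 18 higher and 11 lower of 3414 in amacrine barcodes, and rod bipolar barcodes alone gave 34 higher of 7626. Without mixed barcodes there were 28 higher and 7 lower of 7715 in cone and 10 lower of 3201 in amacrine barcodes. The cleaned classes gave 6 higher of 9732 in bipolar, 8 higher and 9 lower of 7673 in cone, and 16 and 11 of 3082 in amacrine barcodes. The cause of these changes was not tested. The other counts were within 1.5 times those reported.

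Log2 ratios of treated to WT changed sign as follows. They are given here with a prior count of 0.5 molecule equivalents added to each library. Where reads were 0 or few, they therefore differ from the log2 of the CPM ratios above. Without mixed barcodes Adm was at -1.52, Ndufa4l2 at -1.74, Tagln at -0.24 and Rsph10b at 0.16 in cones, and Arc at 0.35, Cck at 1.505, Col9a1 at 1.36, Col9a3 at 0.45, Gfap at -2.01 and S100b at -2.01 in amacrine barcodes. In the cleaned classes Adm was at -0.83, Ndufa4l2 at -0.18, Tagln at -0.22 and Rsph10b at 0.19 in cones, Nrn1 at -0.080 and Pvalb at -0.82 in bipolar, and Arc at 0.0078, Calb1 at -1.41, Cck at 1.64, Col9a3 at 0.59, Cst3 at -0.11, Gfap at -1.87 and S100b at -1.87 in amacrine barcodes. Without the 5 richest barcodes Nrn1 was at -0.48, Pvalb at -1.61 and Stmn2 at -0.038 in bipolar, and Calb1 at -0.058, Cck at 2.41, Cst3 at -0.042 and S100b at -1.40 in amacrine barcodes. Doubled thresholds put Calb1 at -2.99, Gfap at -2.25, S100b at -0.54 and Necab2 at 0.20 in amacrine barcodes. A single subtype put Kcnd2 at -0.025 in rod bipolar, and Gfap at -0.73 and S100b at -1.001 in GABAergic amacrine barcodes. The cause was not tested.

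Genes called under all 12 alternatives included, in bipolar barcodes, Cdk5rap1, Olfr77 and Opn1sw (lower), in cones Chrnb4, Hopx and Zc3hav1 (higher) and Cdk5rap1 and Olfr77 (lower), and in amacrine barcodes Cbln2, Gabra2 and Igfbp2 (higher). The median log2 ratio of a list moved by less than 0.2 in 103 of 108 cases in bipolar, 96 of 108 in cone and 88 of 107 in amacrine barcodes. This covered only the mGluR6 cascade, cone phototransduction, amacrine identity, presynaptic, hypoxia, interferon, immediate-early, integrated stress response and nuclear oxidative phosphorylation lists. Some medians changed sign, among them the bipolar immediate-early median, which ran from -0.296 to 0.328. No paired analysis was possible because each group has 1 library. Amacrine values rest on 71 WT and 90 treated barcodes, and their precision is limited by that number of cells.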
